A study of Mus musculus with 6 samples.

Results

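The comparison described here is that of host genotype under one kind of marrow. Both libraries come from chimeric mice whose transferred bone marrow lacked Mtdh, and only the recipient differed: an Mtdh knockout (KO) host in one and an Mtdh wild-type (WT) host in the other. They are 2 of the 6 libraries of the series and hold 14372 of its 41267 cell barcodes. After filtering, 7654 cells remained for the KO host and 5524 for the WT host. The libraries were chosen by their labels, not by any measured value.

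The study asked how Mtdh in the host and in the immune cells acts on the immune cells of mammary tumours. KO or WT female mice were irradiated and given KO or WT marrow. After 8 weeks they received Py8119 cells, a mouse mammary carcinoma line, and after 4 weeks of growth live CD45+ cells were sorted from the tumours for droplet single-cell RNA sequencing. The labels do not give the mutant allele, the number of mice behind a library or how completely the marrow was replaced. The tumour line was the same in all groups, so the tumour cells carry their own Mtdh in both hosts. The pair that received WT marrow, again in a KO host and a WT host, is given beside the results as a separate pair that shares no library with this one. It held 5405 and 6108 cells.

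MTDH (metadherin) is a protein of tumour cells and other cells that binds SND1, a nuclease of RNA-protein complexes, and is known for promoting tumour growth and spread. CD8 T cells kill target cells with perforin and granzymes and release interferon gamma. Macrophages that sense interferon gamma make the chemokines CXCL9 and CXCL10, which draw T cells, and raise guanylate-binding proteins (GBPs) and the antigen-presenting MHC molecules. Tissue-resident-type macrophages carry another set of genes, such as Folr2, Fcrls and F13a1.

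Each side is 1 library, so no spread between mice can be measured and no test between cells was made. Intervals are 95% exact binomial intervals for shares and exact Poisson-based intervals for levels and ratios, and cover no error other than that of counting. Levels are UMIs (counted RNA molecules) summed over the cells of a class and scaled to the class total (CPM). "Past 2-fold" means a ratio above 2 or below 0.5 for a gene with a mean of at least 20 CPM and at least 50 UMIs. The deposited matrices held 96375286 UMIs for the KO host and 85616443 for the WT host, with a median per kept cell of 10540.5 and 13002.5. The 2 libraries share 14 cell barcodes.

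Cells were assigned to classes by marker gates, with T cells for example required to hold UMIs of the CD3 and receptor genes and macrophages those of a marker set that includes C1qa, C1qb, C1qc, Csf1r and Adgre1. The gates left 10.4% of the KO-host cells and 7.28% of the WT-host cells without a class. These ungated cells had a median of 1677.5 and 5501 UMIs. The sort for CD45 did not leave immune cells alone: a class with keratin and collagen markers, called mesenchymal or tumour cells, was present in both libraries. Its level of Ptprc, which encodes CD45, was 14.5 CPM in the KO host and 7.53 in the WT host, against 384 and 388 in macrophages.

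Mtdh itself (chr15:34082442-34143537, RefSeq GRCm38.p6) followed the marrow label. In macrophages it stood at 12.6 CPM (11.7 to 13.6) in the KO host and 19.0 (17.8 to 20.1) in the WT host, against 109 and 111 CPM in the macrophages of the KO and WT hosts with WT marrow. In CD8 T cells it was 11.6 CPM (9.56 to 13.97) and 13.5 (8.27 to 20.9), against 78.8 and 70.6 with WT marrow. Both libraries with KO marrow were thus low in the marrow-derived classes. Mesenchymal or tumour cells held 401 CPM in the KO host and 425 in the WT host. In B cells it was 16.7 CPM (7.22 to 33.0) in the KO host and 49.95 (35.7 to 68.0) in the WT host. That difference rests on 8 and 40 UMIs. Snd1, whose product binds MTDH, was at 52.6 and 44.4 CPM in macrophages.

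The immune makeup differed most in CD8 T cells, monocytes, B cells and macrophages. CD8 T cells made up 15.7% (14.8 to 16.5) of the KO-host cells, 1198 cells, and 4.11% (3.601 to 4.67) of the WT-host cells, 227 cells. The KO-host share was 3.81 times the WT-host share (3.32 to 4.37). Macrophages went the other way, at 49.7% (48.6 to 50.8) against 64.8% (63.5 to 66.0), a ratio of 0.767 (0.745 to 0.791). Shares of 1 library sum to a whole, so a larger share of one class lowers the others.

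Among lymphocytes, CD8 T cells, natural killer (NK) cells and T cells of no other class made up larger shares in the KO host. NK cells were 0.980% against 0.416%, a ratio of 2.35 (1.48 to 3.75) from 75 and 23 cells. T cells of no other class were 1.74% against 1.30%, a ratio of 1.33 whose interval just excludes 1 (1.003 to 1.77). Conventional CD4 T cells were 1.202% against 1.52%, with an interval for the ratio that includes 1 (0.589 to 1.06), and so did regulatory T cells at 0.771% against 0.579% (0.867 to 2.04). Of all T and NK cells, the CD8 class made up 76.5% in the KO host and 50.3% in the WT host, and CD4 T cells were 5.87% and 18.6%. B cells were the lymphocytes that were scarcer in the KO host, at 1.22% against 4.15%, a ratio of 0.293 (0.231 to 0.372).

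Among myeloid cells, those gated as monocytes were 5.51% (5.01 to 6.05) in the KO host and 0.634% (0.442 to 0.880) in the WT host, a ratio of 8.70 (6.18 to 12.3). The monocyte gate reads Ly6c2, Plac8, Vcan and Hp. Plac8 was also past 2-fold higher in the KO host in 4 of the 5 classes where it was tested, among them neutrophils at 2.49-fold, and its part in the monocyte count was not tested. Type 1 conventional dendritic cells (cDC1), which carry tumour antigen to CD8 T cells, were 0.679% against 0.272%, a ratio of 2.50 (1.41 to 4.44) from 52 and 15 cells. Type 2 cells (cDC2) were 1.28% against 0.670%, and mature dendritic cells 1.23% against 0.833%. Neutrophils were 6.34% against 4.58%, a ratio of 1.38 (1.19 to 1.60). Mesenchymal or tumour cells that came through the sort were 3.11% against 8.64%, a ratio of 0.360 (0.309 to 0.419).

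The pair with WT marrow did not show the same differences. CD8 T cells were there 1.499% in the KO host and 2.13% in the WT host, a ratio of 0.704. Monocytes were 0.907% and 1.24%, neutrophils 3.29% and 6.91%, and macrophages 75.3% and 64.1%. B cells were 1.04% and 0.0819%, from 56 and 5 cells. Under WT marrow the KO host thus held the smaller share of CD8 T cells, monocytes and neutrophils and the larger share of macrophages and B cells. For CD8 T cells the share intervals of the KO and WT hosts overlapped there (1.19 to 1.86 and 1.78 to 2.52). Those of monocytes did too (0.671 to 1.20 and 0.982 to 1.55).

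**Figure D1:**
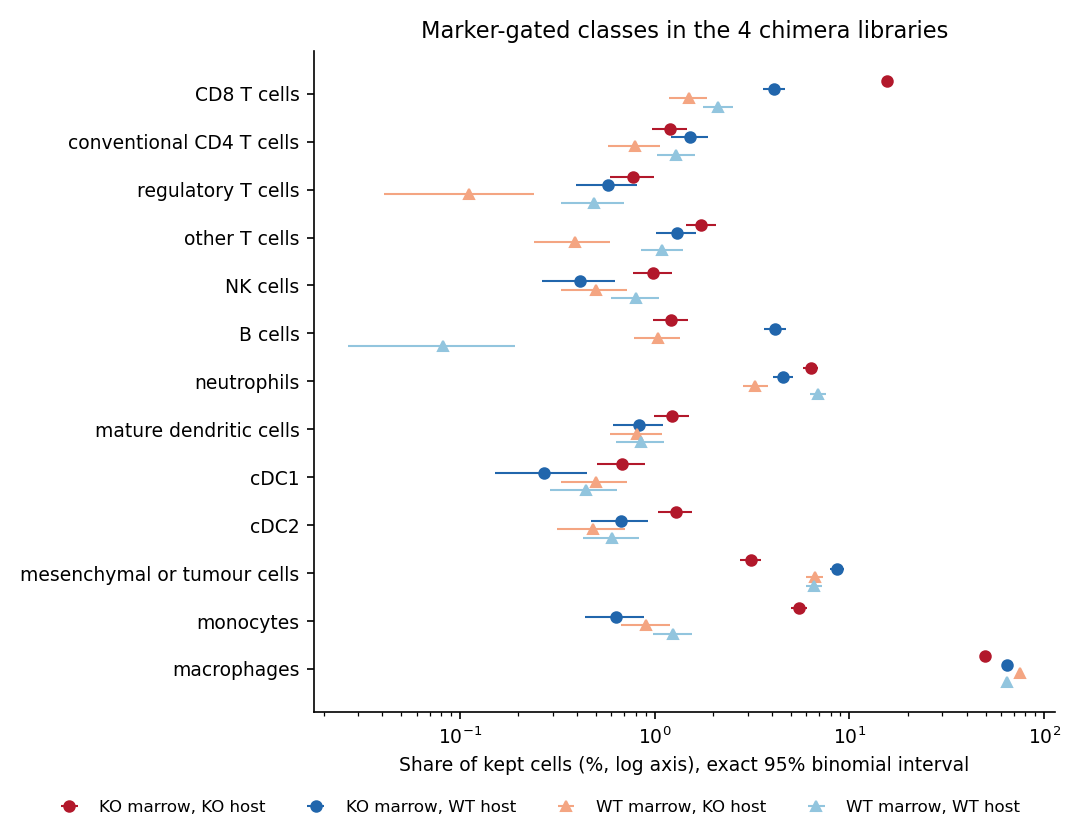
Share of kept cells by class (percent, log axis) in the KO host and the WT host, for the KO-marrow pair and the WT-marrow pair; points are single libraries and bars are 95% exact binomial intervals for counting error. CD8 T cells stand at 15.7% in the KO host and 4.11% in the WT host under KO marrow, and at 1.499% and 2.13% under WT marrow.

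Macrophages of the KO host carried higher levels of interferon-induced genes and lower levels of resident-type genes. Of 5216 genes tested in macrophages 202 (3.87%) were past 2-fold, and of these 142 (2.72%) were higher in the KO host and 60 (1.15%) lower, with a median log2 ratio over all genes of -0.04. All 14 tested members of the list of interferon-gamma-induced chemokines and GTPases were past 2-fold higher (median log2 ratio 2.66). So were 8 of 8 MHC class II genes (1.86) and 13 of 16 genes of MHC class I presentation (1.39). None of these 3 lists had a member past 2-fold lower. The list of type I interferon antiviral genes had 4 of 6 members past 2-fold higher and 0 lower (1.63), among them Isg15, a ubiquitin-like protein gene, at 175 and 39.7 CPM.

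The first list includes chemokines that bind CXCR3 on T cells. Cxcl9 (chr5:92321331-92328079) stood at 2031 CPM in the KO host and 128 in the WT host, and at 185 and 25.4 in the KO and WT hosts with WT marrow. The ratio under KO marrow was 15.9 (15.5 to 16.2). Cxcl10, its neighbour on chromosome 5, stood at 657 and 103 CPM, and at 207 and 108 with WT marrow, a ratio of 6.39 (6.21 to 6.57). For Cxcl9 and Cxcl10 the KO host with KO marrow was the highest of the 4 chimeras. The difference in Cxcl9 was spread over the cells. With every macrophage thinned to 5000 UMIs, which left out 218 KO-host and 62 WT-host cells, 68.3% (66.7 to 69.8) of KO-host macrophages and 6.63% of WT-host macrophages held a Cxcl9 UMI. Without thinning, at a median of 14636 and 14279 UMIs per cell, the shares were 82.4% and 11.1%. CD8 T cells, a class that should lack Cxcl9, held a UMI in 17.9% and 2.13% of cells when also thinned to 5000 UMIs. Cells of that class below 5000 UMIs were left out of these shares, and its median before this was 6937.5 and 5768 UMIs. Cxcl9 UMIs in that class thus followed the same contrast at a lower level. NK cells went the other way, at 52.2 CPM in the KO host and 983 in the WT host. Those values rest on 38 UMIs among 75 cells and 232 UMIs among 23 cells. The WT-host NK cells were fewer than the limit set for comparing classes. T cells of no other class also went the other way, at 88.5 and 183 CPM, from 67 and 69 UMIs. How the Cxcl9 UMIs were spread over the cells of these small classes was not tested.

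The guanylate-binding proteins, GTPases that attack membranes of pathogens and vacuoles, showed the same contrast. Gbp2 stood at 374 and 42.7 CPM, and at 50.7 and 23.3 with WT marrow. Gbp2b stood at 55.2 and 1.40 CPM, and at 2.67 and 0.0789 with WT marrow, a ratio of 39.5 (31.5 to 50.1) that was the largest among the genes past 2-fold in this class. Gbp5, which promotes inflammasome assembly, stood at 63.5 and 8.96 CPM, and at 15.4 and 6.96 with WT marrow. Iigp1, another interferon-induced GTPase, was at 203 and 19.0 CPM (27.3 and 8.65 with WT marrow). For all 4 genes both KO hosts were above both WT hosts, and the gap was wider under KO marrow.

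The 250 bases before a RefSeq transcript start of Cxcl10, Gbp2b and Gbp5 are shown because these genes moved together and interferon-response motifs lie there. They come from RefSeq (GRCm38.p6) and run 5′ to 3′ on the gene's strand. Capitals mark matches on either strand to GAAA, any 2 bases and GAAA again, a form of the interferon-stimulated response element, or to TTCNNNGAA, the gamma-activated site; no match overlaps another. The regions are chr5:92348890-92349139 on the minus strand for Cxcl10, chr3:142594597-142594846 on the plus strand for Gbp2b and chr3:142496684-142496933 on the plus strand for Gbp5.
Cxcl10: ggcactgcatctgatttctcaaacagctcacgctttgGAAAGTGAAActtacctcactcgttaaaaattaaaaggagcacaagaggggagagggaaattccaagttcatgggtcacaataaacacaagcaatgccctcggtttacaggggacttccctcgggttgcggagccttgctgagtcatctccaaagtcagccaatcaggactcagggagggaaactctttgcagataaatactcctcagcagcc
Gbp2b: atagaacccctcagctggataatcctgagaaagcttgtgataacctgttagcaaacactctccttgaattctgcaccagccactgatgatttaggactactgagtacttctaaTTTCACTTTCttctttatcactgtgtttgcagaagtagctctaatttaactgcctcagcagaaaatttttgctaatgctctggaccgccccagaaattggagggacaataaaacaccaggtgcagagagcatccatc
Gbp5: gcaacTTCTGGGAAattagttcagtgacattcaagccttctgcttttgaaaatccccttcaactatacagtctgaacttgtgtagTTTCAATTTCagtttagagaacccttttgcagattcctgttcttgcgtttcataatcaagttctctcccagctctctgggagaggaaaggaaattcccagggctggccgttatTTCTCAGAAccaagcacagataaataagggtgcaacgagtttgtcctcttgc
For Gbp2b this start lies inside the span of the gene. The first motif ends 203 bases before the Cxcl10 start, 127 before that of Gbp2b and 155 before that of Gbp5. It was present for 11 of 13 list genes with a promoter in the RefSeq table and for 3.46% of all 27025 genes there (2.98% of 32851 promoters of this length). The gamma-activated site was present for 7 of the 13 and for 8.13% of all genes (7.02% of promoters), and Gbp5 holds 2. Of 13 resident-type genes, 1 holds the first motif and 0 the second. A match describes the letters and is not evidence of a bound site; Cxcl9 has neither motif in this window.

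Regulators of this response were higher as well. Irf1, a transcription factor that interferon gamma induces, stood at 223 and 48.1 CPM, and at 43.7 and 41.2 with WT marrow, a ratio of 4.63 (4.44 to 4.83). Ciita, the master regulator of MHC class II genes, was at 51.5 and 13.95 CPM. Irf1 differed little between hosts under WT marrow. The receptor subunit gene Ifngr1 went the other way without passing 2-fold, at 252 CPM in the KO host and 412 in the WT host, and none of the 7 genes of interferon gamma and its receptors tested in macrophages passed in either direction.

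MHC class II genes present antigen to CD4 T cells. H2-Ab1 stood at 9056 and 2344 CPM, and at 2989 and 1213 with WT marrow, a ratio of 3.86 (3.84 to 3.89). H2-Aa (7575 and 1998 CPM) and H2-Eb1 (7323 and 1859 CPM) had nearly the same ratio. For each of these 3 genes the order of the 4 libraries was KO host with KO marrow, KO host with WT marrow, WT host with KO marrow and WT host with WT marrow. In class I presentation, the peptide transporter gene Tap1 was at 160 and 31.7 CPM, a ratio of 5.05 (4.80 to 5.32), with 42.4 and 29.2 with WT marrow. H2-K1 was at 2740 and 1051 CPM and B2m at 3785 and 1810.

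Further genes with large ratios were Ly6a, a surface antigen that interferon induces, at 853 and 43.1 CPM (87.0 and 15.6 with WT marrow), and Retnla, which is usually tied to alternative activation, at 99.4 and 4.73 CPM (3.09 and 0.189 with WT marrow). Of the Retnla UMIs 46.6% in the KO host and 87.1% in the WT host came from 5 cells. Nos2, which makes nitric oxide, stood at 108 and 13.2 CPM. With WT marrow it was 7.81 in the KO host and 16.6 in the WT host. Acod1, which makes itaconate, stood at 99.9 and 6.16 CPM, with 7.62 and 8.38 with WT marrow. Nos2 and Acod1 were thus high in 1 of the 4 libraries, the KO host with KO marrow. Cd274, which encodes PD-L1, the ligand of PD-1 on T cells, was at 133 and 50.1 CPM, a ratio of 2.66 (2.54 to 2.78), and at 42.4 and 46.0 with WT marrow. Ccl8, a chemokine that draws monocytes, was at 816 and 108 CPM, and the other 4 genes of that list did not pass 2-fold.

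Inflammatory cytokine genes did not move as a block. Of 13 tested, 4 were past 2-fold higher and 1 lower. Il1b was at 3616 and 3818 CPM, a ratio of 0.947. Il1rn, which encodes the blocker of the IL-1 receptor, was at 493 and 212 CPM, and the neutrophil chemokine Cxcl1 was the lower gene at 175 and 370 CPM. With WT marrow only 1 of these 13 genes was higher in the KO host.

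Resident-type macrophage genes were lower in the KO host: 5 of 9 tested were past 2-fold lower, 0 higher, with a median log2 ratio of -1.74. Fcrls, an Fc-receptor-like gene of resident macrophages and microglia, stood at 120 and 795 CPM, a ratio of 0.151 (0.147 to 0.155). Under WT marrow it was at 943 and 936. F13a1, a transglutaminase gene, stood at 148 and 586 CPM (497 and 700 with WT marrow). Folr2, the folate receptor of resident macrophages, stood at 81.6 and 272 CPM (256 and 291). Cbr2, a carbonyl reductase gene, stood at 42.8 and 317 CPM (244 and 320). For these 4 genes the KO host with KO marrow was the lowest library. Gas6, a ligand of receptors that take up dying cells and the fifth lower member, was at 33.1 and 134 CPM (146 and 157). Outside the list, Igf1 was at 6.70 and 35.7. The mannose receptor gene Mrc1 was at 390 and 663 CPM, short of 2-fold. Thinned to 5000 UMIs, 27.8% of KO-host and 73.4% of WT-host macrophages held an Fcrls UMI. CD8 T cells thinned in the same way held one in 1.80% and 12.8%. Unthinned, the macrophage shares were 42.9% and 85.0%.

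**Figure D2:**
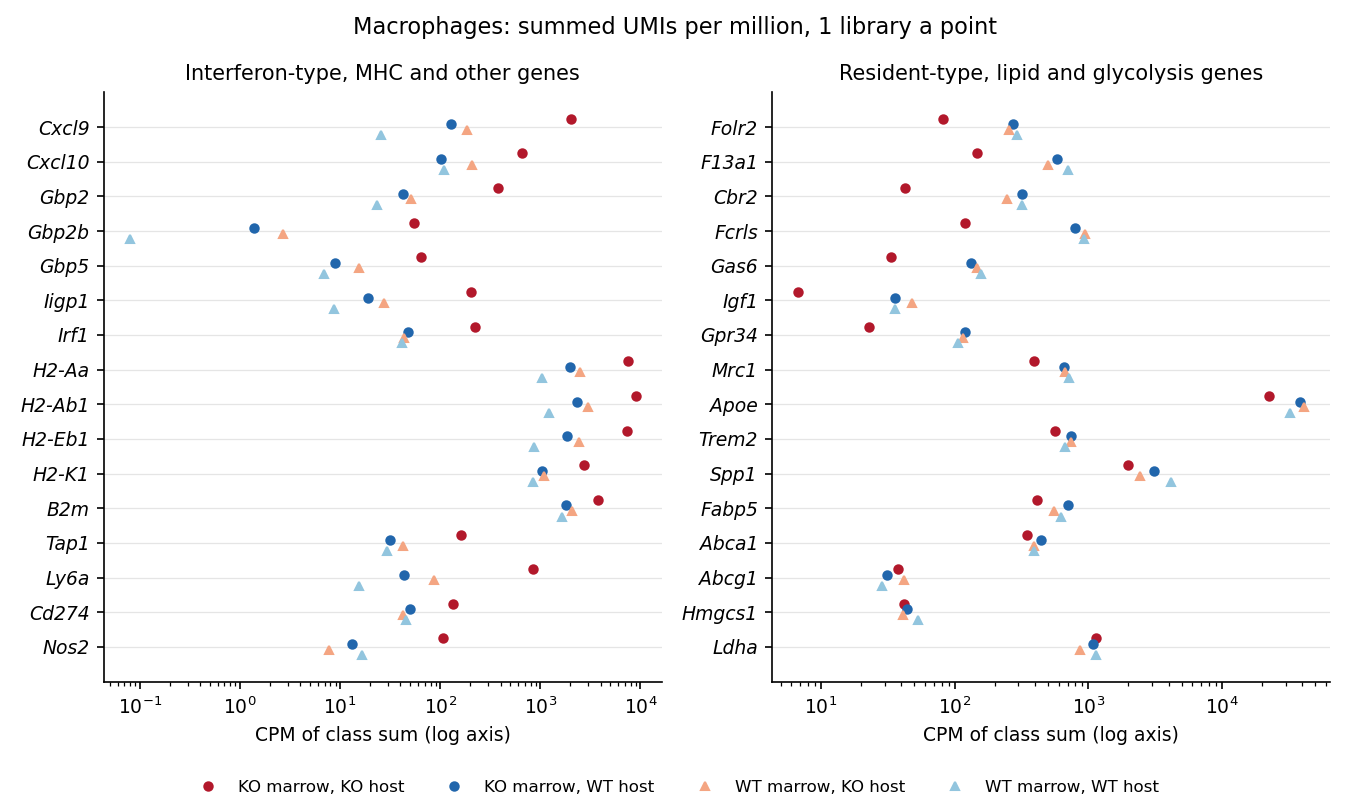
Levels in macrophages (CPM, log axis) of interferon-gamma-type, resident-type and lipid genes in the 4 chimeric libraries; each point is 1 library. Cxcl9 is at 2031 CPM in the KO host with KO marrow and at 128 in the WT host, while Fcrls is at 120 against 795.

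Genes of lipid handling, which the study's title links to the host, stayed within 2-fold in macrophages. None of 10 lipid-associated macrophage genes (median log2 ratio -0.59), 7 cholesterol efflux genes (-0.21), 10 cholesterol synthesis genes (0.04) or 10 fatty acid genes (-0.22) passed. Apoe, which carries cholesterol out of cells, was at 22682 and 38681 CPM, a ratio of 0.586. Abca1, the cholesterol exporter, was at 347 and 443 CPM. None of 17 glycolysis genes passed either. Of 15 genes that respond to tissue dissociation, 4 were past 2-fold lower in the KO host (Jun, Atf3, Hspa1a and Hspa1b) and 1 higher (Egr1). Jun stood at 209 and 545 CPM and Hspa1a at 95.8 and 216. The part of this handling response in the other macrophage differences was not tested.

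**Figure D3:**
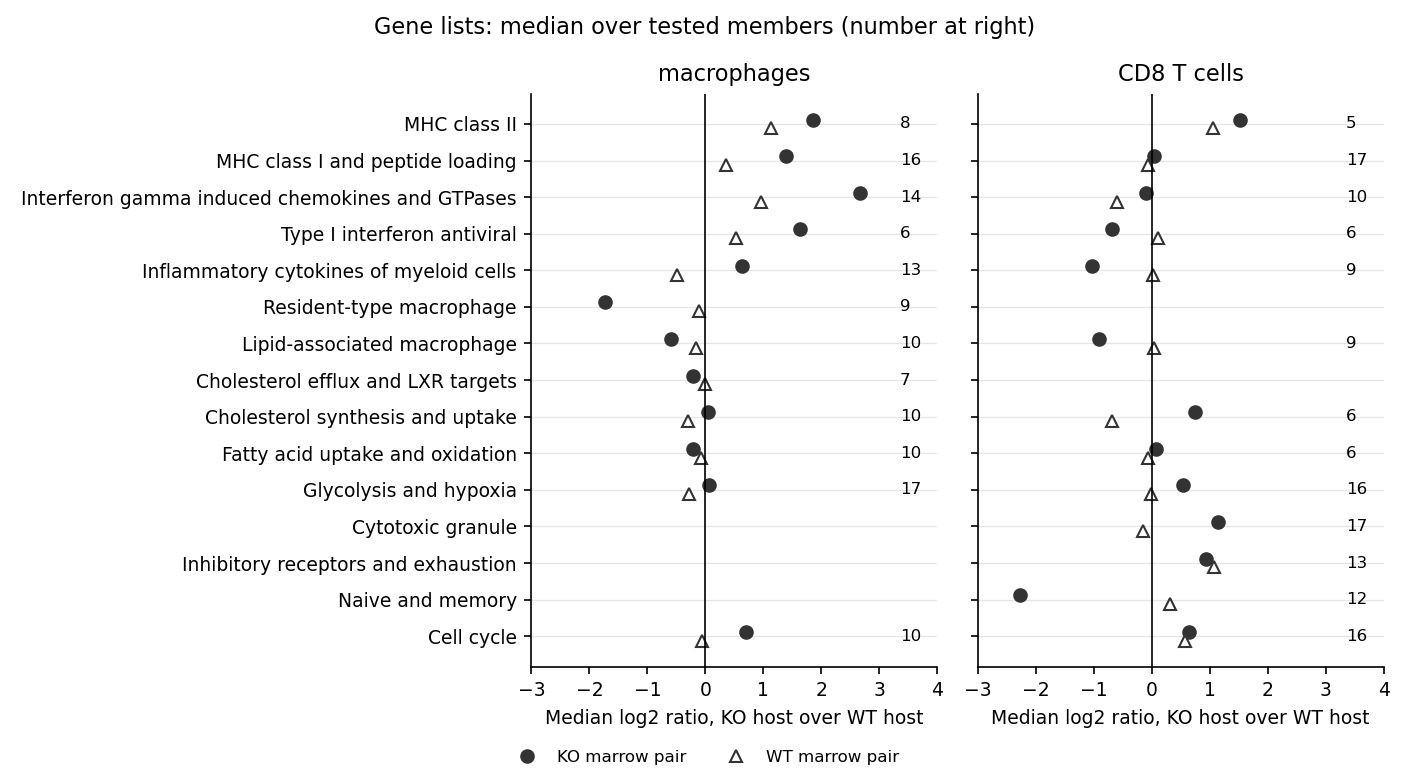
Median log2 ratio of KO host over WT host for each gene list in macrophages and CD8 T cells, under KO marrow and under WT marrow; each point is the median over the list's tested genes, whose number is at the right. In macrophages the interferon-gamma list is at 2.66 under KO marrow and 0.96 under WT marrow, and the resident-type list at -1.74 and -0.10.

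Under WT marrow the interferon-gamma-type lists had the same sign with smaller ratios, while the resident-type list had a median log2 ratio of -0.10. MHC class II genes were higher in the KO host for 8 of 8 (median log2 ratio 1.14), class I genes for 16 of 16 (0.35) and interferon-gamma-induced genes for 13 of 14 (0.96). Of the 141 macrophage genes past 2-fold higher under KO marrow that could be read under WT marrow, 112 (79.4%) were higher in the KO host there too, against 46.8% of all genes tested. Of the 60 lower genes, 37 (61.7%) were lower, against 53.2% of all genes tested.

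CD8 T cells of the KO host held more granzyme and activation transcripts and fewer naive and memory transcripts. Of 4996 genes tested 385 (7.71%) were past 2-fold, and of these 221 (4.42%) were higher in the KO host and 164 (3.28%) lower, with a median log2 ratio of 0.07. Of 17 cytotoxic granule genes, 10 were past 2-fold higher and 2 lower (median log2 ratio 1.14). Of 12 naive and memory genes, 0 were higher and 8 lower (-2.28). Of 13 genes of inhibitory receptors and exhaustion, 5 were higher and 1 lower (0.94), and of 9 cytokine receptor genes 4 were higher (0.94).

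Granzymes are proteases that enter target cells through perforin pores. Prf1, the perforin gene, stood at 808 CPM in the KO host and 125 in the WT host, and at 560 and 82.2 with WT marrow, a ratio of 6.45 (5.57 to 7.50). Gzmb stood at 2251 and 1024 CPM, a ratio of 2.20 (2.09 to 2.32), but with WT marrow it was 714 in the KO host and 1880 in the WT host. Gzma went the other way, at 66.4 and 1051 CPM (183 and 340 with WT marrow). In the KO host 66.9% of Gzma UMIs came from 5 cells, and in the WT host 57.9%. Perforin was thus higher in the KO host under both marrows, while Gzmb was higher only under KO marrow.

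The largest granzyme ratios were those of Gzmd and Gzme, which lie beside each other in the granzyme cluster of chromosome 14. Gzmd (chr14:56129556-56132603) stood at 1043 and 46.0 CPM, and at 138 and 24.2 with WT marrow, a ratio of 22.7 (17.9 to 29.2). Gzme (chr14:56117619-56120625) stood at 692 and 8.13 CPM, and at 192 and 4.21 with WT marrow, a ratio of 85.1 (48.7 to 165). Few cells carried them: Gzmd UMIs were found in 294 of 1198 KO-host cells and in 5 of 227 WT-host cells. Genes of this cluster are near copies of each other, and no source used here says how reads that fit several of them were counted, so the split between Gzmd and Gzme is uncertain. The likeness extends to the 250 bases before a RefSeq transcript start of each, shown here from RefSeq (GRCm38.p6, minus strand of chromosome 14, 5′ to 3′, no capitals because no motif is marked), at chr14:56132594-56132843 and chr14:56120626-56120875. For Gzmd that start lies slightly inside the span of the gene given above.
Gzmd: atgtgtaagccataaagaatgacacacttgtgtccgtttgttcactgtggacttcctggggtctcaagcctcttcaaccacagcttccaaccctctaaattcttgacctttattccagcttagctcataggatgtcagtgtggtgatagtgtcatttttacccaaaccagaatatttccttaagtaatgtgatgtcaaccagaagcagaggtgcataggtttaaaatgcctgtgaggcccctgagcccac
Gzme: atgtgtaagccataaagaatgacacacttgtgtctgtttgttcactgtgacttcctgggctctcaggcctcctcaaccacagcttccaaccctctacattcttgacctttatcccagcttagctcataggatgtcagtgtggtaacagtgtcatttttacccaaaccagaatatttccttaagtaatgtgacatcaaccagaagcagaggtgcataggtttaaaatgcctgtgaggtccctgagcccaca
In an alignment of these 250 bases, 238 (95.2%) were identical, with 11 mismatches and 2 gaps. Neither holds the response element or the gamma-activated site.

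Some other effector genes moved with them. Ifng, the interferon gamma gene, stood at 201 and 23.02 CPM, and at 378 and 32.7 with WT marrow, a ratio of 8.74 (6.23 to 12.7). Ccl3, a chemokine of activated T cells, stood at 123 and 22.3 CPM (422 and 45.3 with WT marrow). Serpinb9b, a serpin gene of the family that protects killer cells from granzymes, stood at 289 and 2.03 CPM (55.4 and 0). Its WT-host value rests on 3 UMIs of 1 cell, so its ratio of 142 has an interval of 48.6 to 690. For these 3 genes both KO hosts were above both WT hosts. The chemokine gene Ccl5 went the other way under KO marrow and was past 2-fold lower, with a ratio of 0.456, as was Gzmk. Of 9 inflammatory cytokine genes tested in CD8 T cells, 2 were past 2-fold higher (Ccl3 and Ccl4). Another 5 were lower, Ccl5 among them (median log2 ratio -1.02). Slc16a11 and Klri2 were not seen in the WT host: at 55.8 and 62.1 CPM in the KO host, they were at least 27.5-fold and 30.6-fold higher against a floor of 3 UMIs.

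Of 8 costimulatory receptor genes 3 were past 2-fold higher and 1 lower (median log2 ratio 0.76). The lower one was Cd7, at 33.8 and 150 CPM, and Eomes, a transcription factor gene, was the lower one of the exhaustion list, at 15.3 and 33.2 CPM. Pdcd1, which encodes PD-1, was at 446 and 232 CPM, a ratio of 1.92 (1.72 to 2.15), just short of 2-fold, and at 400 and 250 with WT marrow. Havcr2, which encodes TIM-3, was at 105 and 31.8 CPM, and Lag3 at 101 and 29.1. Tox, a regulator of exhausted T cells, was at 112 and 80.6 CPM, a ratio of 1.39 (1.15 to 1.69). Rgs16, a regulator of G protein signalling, was at 277 and 41.3 CPM (271 and 57.9 with WT marrow). The costimulatory receptor genes Tnfrsf9 (4-1BB; 683 and 224 CPM) and Tnfrsf4 (OX40; 237 and 28.4 CPM) and the IL-2 receptor genes Il2ra (43.9 and 8.13 CPM) and Il2rb (889 and 302 CPM) were past 2-fold higher. Thinned to 2000 UMIs, which left out 43 and 1 cells, 55.8% of KO-host and 28.3% of WT-host CD8 T cells held a Pdcd1 UMI. Macrophages thinned in the same way held one in 0.587% and 0.028%. Unthinned, the CD8 T cell shares were 83.4% and 37.9%.

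Several naive and memory genes were at low levels in the KO-host class, though not the whole list: Il7r, the IL-7 receptor gene, was at 199 CPM in the KO host and 164 in the WT host. Lef1, a transcription factor of naive T cells, stood at 7.05 CPM in the KO host and 180 in the WT host, and at 59.1 and 84.3 with WT marrow, a ratio of 0.0391 (0.0295 to 0.0512). Tcf7, which encodes TCF1 of naive and stem-like T cells, stood at 6.32 and 121 CPM (72.6 and 51.6 with WT marrow). S1pr1, which lets T cells leave tissue, stood at 4.77 and 121 CPM (68.9 and 50.6). For these 3 genes the KO host with KO marrow was the lowest of the 4 libraries and the WT host with KO marrow the highest. Klf2, which drives S1pr1, was at 65.3 and 754 CPM. Ccr7, a lymph-node homing receptor, was at 116 and 203 CPM and did not pass 2-fold.

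Many of the WT-host CD8 T cells carried these transcripts. A UMI of Lef1, Ccr7 or Tcf7 was found in 187 of 1198 KO-host cells, 15.6% (13.6 to 17.8), and in 136 of 227 WT-host cells, 59.9% (53.2 to 66.3). Levels were therefore also computed over the cells with none of these UMIs, 1011 in the KO host and 91 in the WT host, an alternative chosen after seeing the data. In the KO host Lef1 was found in 49 cells and Tcf7 in 45, so many of the 187 cells left out held Ccr7 without either. Those cells were not shown to be naive, so the values below are not a correction for naive cells alone. Among the remaining cells, 344 of 4990 genes (6.89%) were past 2-fold, 155 (3.11%) higher and 189 (3.79%) lower. Of them, 205 were called in all CD8 T cells too, none in the opposite direction. Gzme was then at 751 and 18.7 CPM, a ratio of 40.2 (22.5 to 80.7), Gzmd at 1141 and 115 CPM and Prf1 at 832 and 251 CPM, a ratio of 3.31 (2.82 to 3.93). Ifng had a ratio of 4.02 (2.73 to 6.18) and Tnfrsf4 one of 3.93. Gzmb was at 2368 and 2222 CPM, a ratio of 1.07 (1.01 to 1.13), Pdcd1 at 473 and 469.9 CPM, a ratio of 1.01 (0.890 to 1.14), and Tox had a ratio of 0.982 (0.766 to 1.28). Havcr2 (1.76), Lag3 (1.70) and Tnfrsf9 (1.58) were then under 2-fold. Prf1, Ifng, Gzmd and Gzme were thus past 2-fold with and without these cells, and Gzmb, Havcr2, Lag3 and Tnfrsf9 were past it only with them. Of the cytotoxic list 5 of 17 were then higher and 3 lower, with a median log2 ratio of 0.20.

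**Figure D4:**
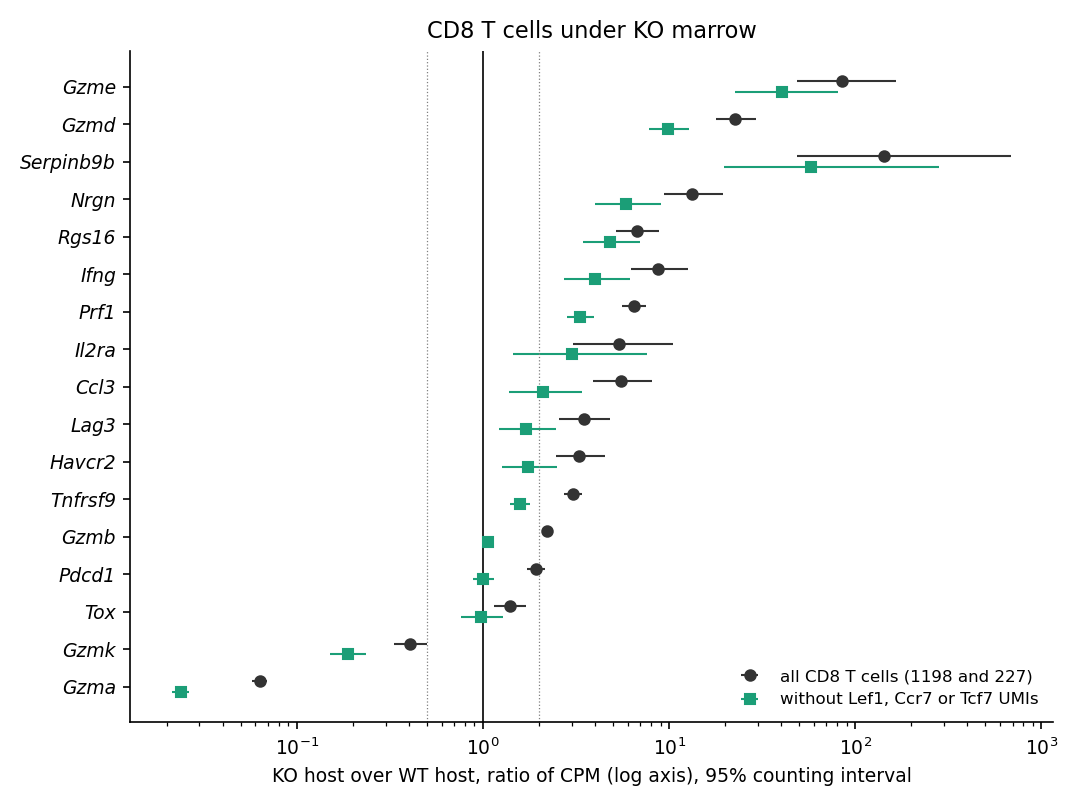
Ratio of KO host over WT host (log axis) for CD8 T cell genes, over all CD8 T cells and over those without a UMI of Lef1, Ccr7 or Tcf7; bars are 95% counting intervals and dotted lines mark 2-fold. Prf1 goes from 6.45 to 3.31 and Gzmb from 2.20 to 1.07.

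The interferon-gamma-type contrast of the macrophages was not seen as a block in CD8 T cells. Of 10 tested genes of that list only Cxcl9 and Cxcl10 were past 2-fold higher (median log2 ratio -0.10), and of 17 class I genes 0 passed in either direction (0.05). Gbp2 had a ratio of 0.684 there, against 8.76 in macrophages.

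Free RNA and proliferation were read beside these values. The macrophage genes C1qa, C1qb and C1qc were found in KO-host CD8 T cells at 2.55%, 3.39% and 2.47% of their macrophage level, and in WT-host CD8 T cells at 3.29%, 4.99% and 3.40%. H2-Ab1, past 2-fold higher in CD8 T cells, was there at 4.21% and 6.24% of its macrophage level, somewhat above those genes in each library. Cd74, also past 2-fold higher, was below them in each library, at 2.27% and 2.69%. Cxcl9, higher too, was at 2.16% and 3.70%, below them in the KO host and within their range in the WT host. The share of free RNA in these CD8 T cell values was not tested. Of 16 cell cycle genes 4 were past 2-fold higher (Mcm3, Mcm5, Mcm6 and Tyms), and none lower. Of 6 cholesterol synthesis genes 3 were higher: Idi1 at 33.6 and 11.5 CPM, Fdps at 28.3 and 13.5 and Cyp51 at 47.7 and 21.0. Under WT marrow these 3 genes were lower in the KO host, Cyp51 at 8.61 and 24.2 CPM.

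Under WT marrow, 114 of the 140 CD8 genes past 2-fold higher under KO marrow and readable there (81.4%) were higher in the KO host, against 49.7% of all genes tested. Of the lower genes 66.2% were lower, against 50.3%. Not every list kept its sign: the median log2 ratio of the exhaustion list was 1.07, that of the naive and memory list 0.32 and that of the cytotoxic list -0.14. The WT-marrow values rest on 81 and 130 CD8 T cells.

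The T cell receptor gives a view of how many clones lie behind these cells, since daughter cells of a clone share the beta-chain V segment. End-counting libraries show the V segment in few cells: 138 of 1198 KO-host and 47 of 227 WT-host CD8 T cells had a single leading Trbv gene. Trbv12-1 (chr6:41113567-41114067) led in 105 of the 138 KO-host cells, 76.1% (68.1 to 82.9), and in 1 of the 47 WT-host cells, 2.13% (0.0539 to 11.3). In the WT host the most frequent was Trbv17, in 12 of 47 cells (25.5%). Under WT marrow Trbv29 led in 14 of 19 KO-host cells, 73.7% (48.8 to 90.9), while Trbv12-1 led in 5.26% there and in 3.03% of the WT host. One V segment thus led among the readable cells of each KO host, and it was a different one in each. The count of V genes seen was 16 and 15 under KO marrow, from 138 and 47 readable cells, and 4 and 13 under WT marrow, from 19 and 33. The numbers of cells were not made equal, so these counts are not a measure of diversity.

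Outside CD8 T cells, Trbv12-1 was looked for only in macrophages and conventional CD4 T cells, and was rarely or never read there. Its UMIs were found in 106 of 1198 KO-host CD8 T cells (8.85%), in 1 of 3803 macrophages and in 0 of 92 CD4 T cells. How well a V segment is read may differ among segments, and a shared V segment does not show a shared clone. Among alpha-chain genes, Trav13-1 led in 27.7% of 235 readable KO-host cells and Trav3-3 in 19.6%, and Trav16 in 38.6% of 57 WT-host cells.

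The KO-host cells that read Trbv12-1 had the highest levels of some effector genes and not of others. Their summed level of Gzmd was 1830 CPM, against 525 in the 33 cells led by another Trbv gene and 963 in the 1060 cells with none read. Gzme was 1283, 317 and 632 CPM, Serpinb9b 474, 84.1 and 272, and Prf1 878, 300 and 814. Ifng, in contrast, was 160 CPM in the Trbv12-1 cells and 209 in those with none read, and Gzmb was 2109 and 2287 CPM. Tcf7 was 8.89, 40.1 and 5.01 CPM. Pdcd1 was nearer among the 3 sets of cells, at 455, 364 and 447 CPM. Over all KO-host CD8 T cells, 28.4% of the Gzmd UMIs and 21.4% of the Gzme UMIs came from 5 cells. Their part in the differences by V segment was not tested. All of these are cells of 1 library, so the values describe it and no test was made.

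**Figure D5:**
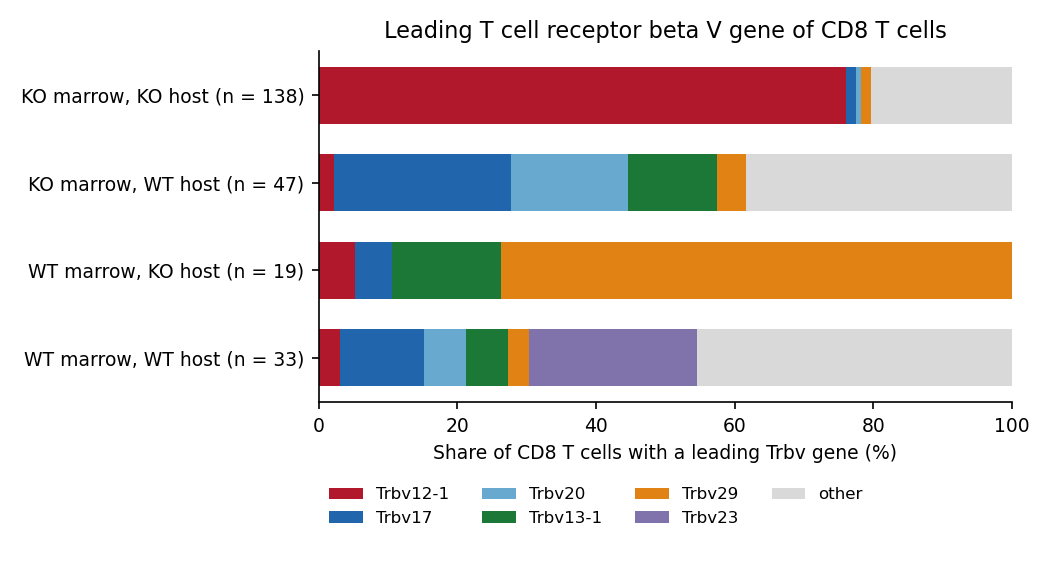
Share of CD8 T cells by leading Trbv gene (percent of cells with a single leading Trbv gene) in the 4 chimeric libraries; each stacked bar is 1 library, coloured by V gene, with the number of readable cells beside it. Trbv12-1 holds 76.1% in the KO host with KO marrow and 2.13% in the WT host, and Trbv29 73.7% in the KO host with WT marrow.

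Neutrophils and the mesenchymal or tumour cells showed the interferon-gamma-type contrast as well. In neutrophils 271 of 3465 genes (7.82%) were past 2-fold, 166 (4.79%) higher and 105 (3.03%) lower. All 11 tested genes of the interferon-gamma list (median log2 ratio 3.48), 16 of 17 class I genes and 6 of 6 class II genes were past 2-fold higher, as were 7 of 14 type I interferon genes. Gbp2 stood at 1384 and 64.0 CPM, and at 59.2 and 49.3 with WT marrow, a ratio of 21.6 (16.1 to 29.8). Gbp5 was at 294 and 11.4 CPM (20.8 and 5.85). The lower genes with the most extreme ratios were Fcrls at 6.31 and 71.1 CPM, Syne1 at 18.9 and 154 and the elastase gene Mmp12 at 43.3 and 341. Of the WT-host Mmp12 UMIs 92.9% came from 5 cells, and 37 of 485 KO-host and 22 of 253 WT-host neutrophils held one, so its lower level rests on those 5 cells. Fcrls and Cxcl9 are macrophage genes, and the share of free RNA in these neutrophil values was not tested.

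In mesenchymal or tumour cells 123 of 5467 genes (2.25%) were past 2-fold, 86 (1.57%) higher and 37 (0.677%) lower. Of the interferon-gamma list 10 of 12 were higher (median log2 ratio 3.41), of class I genes 13 of 15, of class II genes 5 of 5 and of type I interferon genes 6 of 8. Gbp4 stood at 40.5 and 1.31 CPM, and at 6.12 and 0.608 with WT marrow, and Cxcl9 at 79.2 and 2.38 (6.03 and 1.22). Of the KO-host Cxcl9 UMIs 51.4% came from 5 of 238 cells. The macrophage gene C1qa was read in this class at 116 and 128 CPM under KO marrow. The share of free RNA in its Cxcl9 and class II values was not tested. The lower genes with the most extreme ratios included matrix genes: the collagen-binding proteoglycan gene Dcn was at 81.3 and 416 CPM, and Postn, which encodes periostin, at 22.4 and 112, with 75.4% of its KO-host UMIs in 5 cells. Dcn was not lower in the KO host under WT marrow, at 374 and 202 CPM. Tumour cells and other mesenchymal cells were not separated, so a change in their mix and a change per cell cannot be told apart.

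The B and CD4 T cell classes are small. In B cells (93 and 229 cells) 398 of 3108 genes (12.8%) were past 2-fold, 225 (7.24%) higher and 173 (5.57%) lower, and the largest ratio was that of Jchain, the joining chain of secreted antibodies, at 5474 CPM in the KO host and 21.2 in the WT host. Of its KO-host UMIs 99.9% came from 5 cells. The protease gene Ctsk, at 0 and 325 CPM, had its WT-host UMIs in 3 of 229 cells. In conventional CD4 T cells (92 and 84 cells) 151 of 2691 genes (5.61%) passed, 120 (4.46%) higher and 31 (1.15%) lower. Of 11 naive and memory genes 6 were past 2-fold lower in the KO host and 0 higher, and of 10 cytotoxic granule genes 4 were higher and 0 lower. All 5 tested MHC class II genes were higher there as well, a set that macrophages express at high levels.

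Among the T cells of no other class 243 of 3065 genes (7.93%) were past 2-fold, 172 (5.61%) higher and 71 (2.32%) lower. There, 8 of 15 cytotoxic granule genes were higher in the KO host and 1 lower. Gzmf was at 2139 CPM in the KO host and not seen in the WT host, at least 269-fold higher against a floor of 3 UMIs, but 94.6% of its UMIs came from 5 of 133 cells. Gzma was at 2.64 and 427 CPM, read in 2 cells of each library. These granzyme levels therefore rest on a handful of cells.

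Across the 7 classes with at least 50 cells in both hosts, Cxcl10 was past 2-fold higher in the KO host in 7. Cxcl9, H2-Aa, H2-Ab1 and Ly6a were higher in 6, with Cxcl9 lower in the seventh, the T cells of no other class. In CD4 T cells 92.5% of the KO-host Cxcl9 UMIs came from 5 cells. Among lower genes Tespa1, S1pr1 and Foxp1 were lower in 4 classes. The chemokine and MHC transcripts are abundant in macrophages and were found at a few percent of that level in CD8 T cells, and their part in the small classes was not tested.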

How the data were processed

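Live CD45+ tumour cells of 6 groups with 1 library each were sequenced, and the 2 libraries with KO marrow were compared. The deposited files hold raw UMI counts per gene and barcode (31053 genes), which the authors made with Cell Ranger 6.1.1, per the file headers of the 4 chimeras. Per the submitters' processing notes, Cell Ranger, Seurat and mm10 were used. No source used here says if intron reads entered the counts. Samples were grouped by their titles, and 0 sample columns went unused.

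Cells needed at least 500 UMIs, 200 genes and at most 15% mitochondrial UMIs, which removed 200 KO-host and 152 WT-host barcodes. Scrublet (scanpy 1.11.5) called 2 doublets in each library, so its threshold did not work, and the top 6% of scores were removed instead, 489 and 353 cells. Classes were gated on summed marker UMIs, with gate limits set after the marker distributions were seen. UMIs were summed per class and library and scaled to CPM by the class total. Shares have exact binomial and ratios exact conditional 95% intervals (SciPy 1.17.1). Classes with at least 50 cells in both libraries were compared. With 1 library a side no p-value was computed.

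Genes named are, in CD8 T cells and macrophages, the 10 per direction with the largest ratio past 2-fold (3 in other classes) whose interval excludes 1, leaving out mitochondrial, ribosomal, immunoglobulin, receptor segment and unnamed genes. Added to these are up to 6 list members with the highest mean level and any member past 2-fold, Mtdh and Snd1, the genes past 2-fold in the most classes and the 5 Trbv genes with the highest level. Values by V segment and the alpha-chain segments were chosen after their values were seen. Some genes that the rule names are not reported here. The classes, gene lists and comparison were chosen with earlier results of these data known. The counting and ratio scripts were tested on simulated data. Alternatives were another scaling (edgeR 4.0.16 TMM, DESeq2 1.42.0 size factors), other filters on cells and genes, no doublet removal, gates on thinned cells and Leiden clusters (leidenalg 0.10.2) in place of gates.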

Additional observations from a re-analysis of the deposited data

Results flagged for a closer look

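For 5 classes the share in the KO host relative to the WT host lay on opposite sides of 1 under the 2 kinds of marrow, and the exact binomial intervals of the KO-host and WT-host shares did not overlap in either pair. These differences between the pairs were not tested, since each side is 1 library. B cells had a ratio of 0.293 under KO marrow and 12.7 under WT marrow, where the WT host held 5 B cells. For neutrophils it was 1.38 and 0.477, for macrophages 0.767 and 1.18, and for the ungated cells 1.43 and 0.573. All T and NK cells together had a ratio of 2.51 under KO marrow and 0.573 under WT marrow. Other classes also lay on opposite sides of 1 but had overlapping share intervals in at least 1 pair, among them CD8 T cells (3.81 and 0.704) and T cells of no other class (1.33 and 0.354).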

How the results depend on the processing

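No paired analysis was possible because each group holds 1 library and no result comes from a test; for the same reason no replicate could be left out. The CD8 T cell share ratio of 3.81 was 4.501 with gates on cells thinned to 2000 UMIs (919 and 265 cells left out) and 3.02 with Leiden clusters. The macrophage share ratio of 0.767 was 0.851 with thinned gates. The number of genes past 2-fold in CD8 T cells was 385, and was 2675 without the filter on low genes, 95 with a mean of at least 100 CPM and 246 with 10 CPM added to both levels. The number of genes past 2-fold in macrophages was 202, and was 2778 without that filter and 70 with a mean of at least 100 CPM. None of the recomputed counts held a gene called in the opposite direction. TMM and DESeq2 scaling kept all 91 named CD8 and all 79 named macrophage genes with a finite ratio past 2-fold, and Leiden classes kept 75 and 77. Without the CD8 T cells that carry a Lef1, Ccr7 or Tcf7 UMI, 59 of 88 remained past 2-fold, and Klf3 (ratio 1.62) reversed. Il1rn in CD8 T cells reversed with Leiden clusters (1.52). The cause was not tested. Without macrophages that carry a Cxcl9 UMI, 67 of 78 named macrophage genes remained past 2-fold. Depth limits the small classes, and replicate mice would be needed to set any of these ratios against animal spread.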
